A study of Mus musculus with 12 samples.

Results

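The Lgr receptors and the R-spondin pathway were followed across cells of the mouse circumvallate papilla, a taste papilla far back on the tongue, sorted by how brightly they reported Sox2. The 9 genes were chosen by name: the receptors Lgr4, Lgr5 and Lgr6, the ligases Rnf43 and Znrf3, and the ligands Rspo1, Rspo2, Rspo3 and Rspo4. All 9 were among the 52670 gene symbols of the count and TPM (a level per transcript length and library) tables, and 7 passed the filter on low counts. All mice carried Sox2GFP, a green fluorescent reporter of Sox2, and were adults of 11 to 12 weeks; the sources used here name neither strain nor sex. Peeled epithelium was dissociated with enzymes, cells without fluorescence were discarded, and the rest were sorted into the bins Low, MedLow, HiMed and High, with no further treatment. Each bin has 3 libraries of polyadenylated RNA, with 7 to 13 mice pooled per replicate, and no bin is a reporter-free control.

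R-spondins are secreted proteins that strengthen Wnt signalling. Without them, the membrane E3 ligases Rnf43 and Znrf3 mark Frizzled, the Wnt receptor, for removal from the cell surface. An R-spondin bridges an Lgr receptor and a ligase, the ligase is cleared, and Frizzled stays. Rnf43 and Znrf3 are themselves targets of Wnt signalling, so they form a feedback loop, and Lgr5 and Lgr6 are known as markers of stem and progenitor cells in taste epithelium.

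Libraries held 25.7 to 55.6 M counts. Sox2 averaged 70.3 ± 6.17 CPM (read counts scaled by library size and TMM) in Low, 98.0 ± 1.20 in MedLow, 171 ± 2.64 in HiMed, with 372.5 ± 12.8 in High (SD, n = 3 each), in the order of the sort. The summed level of 6 basal keratinocyte markers was 30100 to 30500 CPM in Low, 19300 to 20900 in MedLow, 11500 to 12200 in HiMed, with 4610 to 7000 in High. That of 6 keratin and junction markers of taste buds was 542 to 760 CPM in Low and 328 to 518 in MedLow. In HiMed it was 800 to 988, with 2440 to 4440 in High. Markers of the taste cell types were mixed in High against Low, where 41.2% of all genes were called (adjusted p below 0.05). The sum of 6 type II markers was 840 to 1010 CPM in Low and 418 to 496 in High (0 called higher, 4 lower). That of 4 type I markers was 63 to 74 CPM and 204 to 367 (3 higher, 1 lower). Its largest part was Slc1a3 in Low (49.7 CPM) and Entpd2 in High (205 CPM). In MedLow the type I sum was 33.3 to 37.9 CPM, and in HiMed it was 12.6 to 18.7. The sum of 6 type III markers was 60 to 97.5 CPM in Low and 116 to 224 in High (2 higher, 3 lower). The summed level of 6 suprabasal keratinocyte markers was 7430 to 8600 CPM in Low and 25400 to 26100 in MedLow. In HiMed it was 7850, 24200 and 17900 CPM in replicates 1, 2 and 3, and in High it was 1340 to 2160. These marker sums moved with the bins, and their part in the results on the receptors and ligases was not tested; in bulk RNA fewer cells of a type and less RNA per cell cannot be told apart.

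RefSeq start regions of genes that differed between bins are shown because Lgr4 fell and Lgr6 rose in High against Low. Rnf43 has more than 1 annotated start. Each runs 5′ to 3′ on the gene's strand, from 250 bases before the start to 50 after it, on GRCm38.p6, which is not the mm39 build named by the submitters. The Lgr6 region lies at chr1:135105227-135105526, minus strand, that of Lgr4 at chr2:109917397-109917696, plus strand, and those of Rnf43, start A and start B, at chr11:87662837-87663136, plus strand, and chr11:87699647-87699946, plus strand. Capitals mark matches to a motif.
Lgr6: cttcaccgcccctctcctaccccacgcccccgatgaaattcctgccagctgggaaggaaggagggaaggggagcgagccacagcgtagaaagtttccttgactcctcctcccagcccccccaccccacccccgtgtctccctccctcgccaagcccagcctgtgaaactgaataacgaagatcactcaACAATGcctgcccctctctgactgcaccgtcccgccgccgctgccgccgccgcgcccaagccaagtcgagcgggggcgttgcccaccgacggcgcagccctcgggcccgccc
Lgr4: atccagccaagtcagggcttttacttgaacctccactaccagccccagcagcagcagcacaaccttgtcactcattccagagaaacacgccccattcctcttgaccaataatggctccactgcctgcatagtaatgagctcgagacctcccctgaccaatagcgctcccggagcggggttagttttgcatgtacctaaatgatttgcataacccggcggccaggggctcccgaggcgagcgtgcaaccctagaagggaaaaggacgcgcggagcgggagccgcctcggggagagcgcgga
Rnf43, start A: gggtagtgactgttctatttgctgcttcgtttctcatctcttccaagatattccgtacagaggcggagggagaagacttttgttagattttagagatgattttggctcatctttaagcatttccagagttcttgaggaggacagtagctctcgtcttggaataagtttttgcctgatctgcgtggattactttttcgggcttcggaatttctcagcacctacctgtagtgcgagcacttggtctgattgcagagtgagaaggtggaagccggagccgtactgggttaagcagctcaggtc
Rnf43, start B: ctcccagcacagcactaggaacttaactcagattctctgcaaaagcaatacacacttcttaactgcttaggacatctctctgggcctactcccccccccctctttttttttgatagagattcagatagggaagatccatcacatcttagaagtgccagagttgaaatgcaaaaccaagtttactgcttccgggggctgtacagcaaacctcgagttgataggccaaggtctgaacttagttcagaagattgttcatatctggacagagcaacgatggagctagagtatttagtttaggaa
The table of start regions held 5 of the 9 genes, with Rspo1 and Rspo4 as the others, in 6 regions. It held none for Lgr5, Znrf3, Rspo2 or Rspo3, so the motifs were not searched in those genes. Both strands were searched for TCAAAG, a core of the TCF/LEF motif read by Wnt signalling, for ACAATG, a core of the SOX motif, and for CCACCCA, a core of the GLI motif of Hedgehog signalling. The 6 regions held 1 match, an ACAATG in that of Lgr6, whose first base is at position -62 counted from the start site. Of all 32851 regions of this length, 12.6% held the SOX core, 16% the TCF/LEF core and 9.3% the GLI core. The Lgr6 region was 67.7% G and C with 24 CpG dinucleotides and that of Lgr4 58.3% with 18, while the Rnf43 regions were 46.7% with 10 and 44.3% with 3.

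The 3 receptors followed different courses. Lgr4, the most broadly expressed receptor of the family, had 199.9, 205.5 and 195.2 CPM in Low, 130.6, 131.5 and 107.7 in MedLow, 66.0, 76.9 and 71.9 in HiMed, and 82.9, 77.4 and 76.7 in High. It was highest in Low, and no library of another bin reached that range. HiMed and High lay together at the bottom, and their libraries overlapped. Adjusted p-values here and below come from the quasi-likelihood test of edgeR, with Benjamini-Hochberg adjustment, unless limma is named. The main fit adjusted over all 17432 genes. Fits without a library or with another filter adjusted over the genes they kept. Lgr4 fell by 0.70 on the log2 scale in MedLow against Low (SE 0.09, adjusted p = 0.000113). It fell again by 0.78 in HiMed against MedLow (SE 0.09, adjusted p = 2.64e-05). The last step was not called: High over HiMed was 1.10-fold (95% interval 0.971 to 1.25, adjusted p = 0.279).

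Lgr5, a marker of stem cells in many epithelia, had 12.3, 6.94 and 10.8 CPM in Low, 61.3, 41.4 and 52.8 in MedLow, 303.6, 216.8 and 197.1 in HiMed, and 178.0, 192.9 and 155.5 in High. Every MedLow library was above every Low library, and every HiMed and High library above both. Lgr5 rose by 2.36 in MedLow against Low (SE 0.24, adjusted p = 0.000179) and by 2.21 in HiMed against MedLow (SE 0.23, adjusted p = 0.000133). HiMed was 23.7-fold above Low (95% interval 15.9 to 35.2). Above HiMed no rise was called: every High library lay below every HiMed library, and the mean was 175.5 ± 18.8 CPM in High and 239 ± 56.7 in HiMed (High over HiMed 0.734-fold, 95% interval 0.525 to 1.03, adjusted p = 0.181). HiMed replicate 1 had the highest Lgr5 level and also the lowest suprabasal marker sum of its bin, and the part of those cells in the result was not tested.

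Lgr6, which marks progenitors in skin and tongue, had 60.5, 63.6 and 79.0 CPM in Low, 51.1, 36.8 and 49.9 in MedLow, 356.5, 248.7 and 306.1 in HiMed, and 675.7, 639.9 and 668.3 in High. It was lowest in MedLow, and the 4 bins did not overlap. The rise came at the brighter steps, with 2.73 in HiMed against MedLow (SE 0.16, adjusted p = 4.59e-07) and 1.12 in High against HiMed (SE 0.15, adjusted p = 0.000152). High was 14.4-fold above MedLow (95% interval 11.2 to 18.4). MedLow against Low was -0.56 (SE 0.15, adjusted p = 0.0421), a call lost at adjusted p = 0.052 to 0.165 without any 1 of 10 libraries, and kept without HiMed replicate 1 or HiMed replicate 2. It was also lost with library size only (0.0537), no filter on low counts (0.0868) and limma on log2(TPM + 1) (0.141). From HiMed to High the mean of Lgr6 went up and that of Lgr5 did not, and the difference between the genes was not tested.

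**Figure D1:**
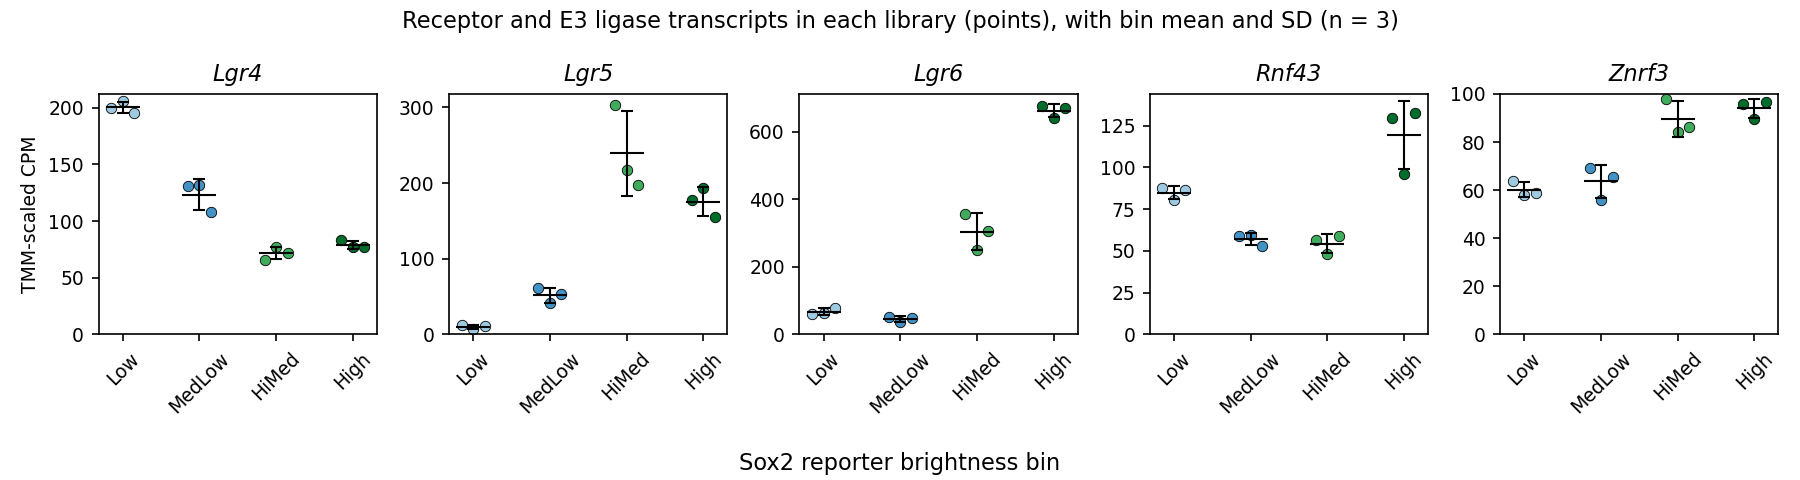
TMM-scaled CPM of the 3 receptors and 2 ligases in each of the 12 libraries (points) by brightness bin, with the bin mean and SD (n = 3), each panel on its own linear axis from 0. Lgr4 is highest in Low, Lgr5 is highest in HiMed and High, Lgr6 climbs to 639.9 to 675.7 CPM in High, and Rnf43 is lowest in the middle bins.

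Because TPM is per length, it allowed the receptors to be set beside each other. Their summed level was 80.7, 80.6 and 83.0 TPM in Low, 76.3, 66.6 and 64.5 in MedLow, 232, 168 and 175 in HiMed, and 286, 277 and 280 in High. The 2 brighter bins lay wholly above the 2 dimmer ones. Lgr4 gave 76.9 ± 3.32% of that sum in Low, 57.1 ± 5.36% in MedLow, 12.7 ± 2.72% in HiMed, with 10.3 ± 0.435% in High (SD, n = 3 each). Lgr5 gave 4.19 ± 1.21% in Low, 27.8 ± 2.52% in MedLow, 47.9 ± 5.09% in HiMed, with 26.4 ± 1.41% in High. Lgr6 gave 18.9 ± 2.76% in Low, 15.2 ± 2.90% in MedLow, 39.4 ± 4.60% in HiMed, with 63.2 ± 1.82% in High. The leading receptor was thus Lgr4 in every Low and MedLow library and Lgr6 in every High library. In HiMed, Lgr5 led in replicates 1 and 2, with 51.3% and 50.3%, and Lgr6 in replicate 3, with 44.2% against 42.0% for Lgr5. There were 4.78 ± 1.47 Lgr6 TPM per Lgr5 TPM in Low, 0.543 ± 0.0580 in MedLow, 0.835 ± 0.189 in HiMed, with 2.40 ± 0.192 in High.

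**Figure D2:**
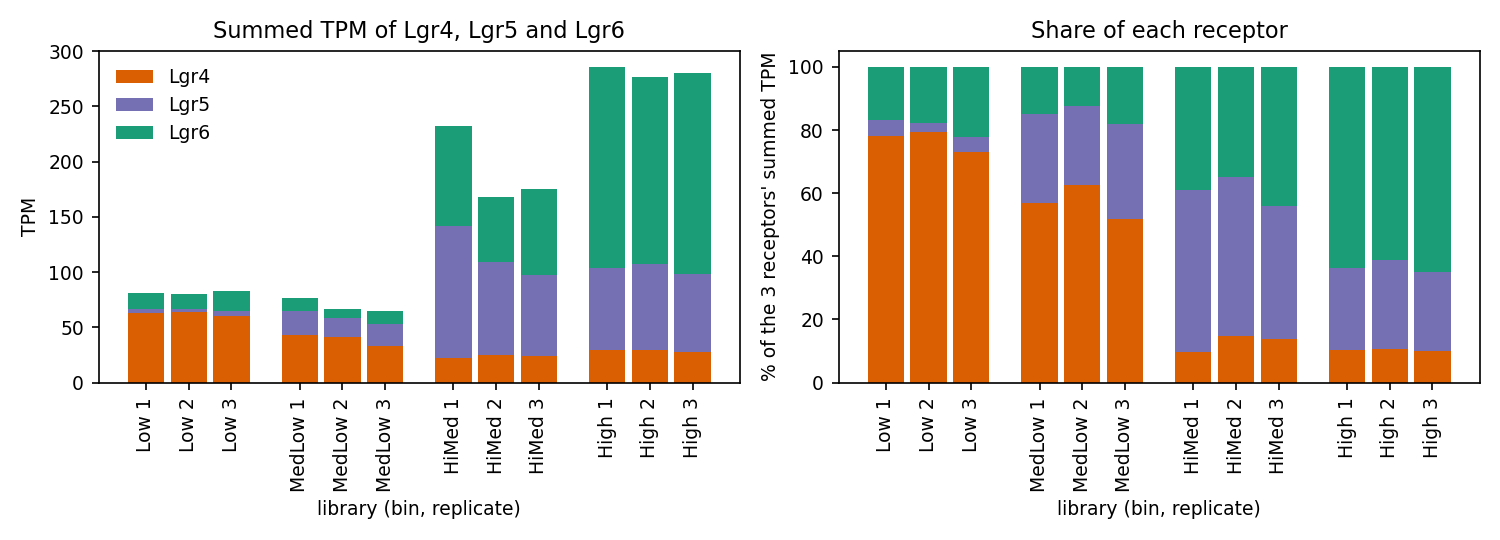
Summed TPM of Lgr4, Lgr5 and Lgr6 in each library (left) and each receptor's percentage of that sum (right), by bin and replicate. Lgr4 fills 73.1 to 79.5% of the Low libraries, and Lgr6 61.2 to 64.8% of the High libraries, whose sum is 277 to 286 TPM.

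The ligases varied less than Lgr5 and Lgr6. Rnf43 had 87.6, 80.2 and 86.2 CPM in Low, 58.8, 59.4 and 53.2 in MedLow, 56.3, 47.9 and 58.9 in HiMed, and 129.5, 95.7 and 132.4 in High. It was lowest in the middle bins and highest in High, so its course did not follow brightness. Rnf43 fell by 0.57 in MedLow against Low (SE 0.12, adjusted p = 0.00687) and rose by 1.13 in High against HiMed (SE 0.12, adjusted p = 7.66e-06). High was 1.41-fold above Low (95% interval 1.19 to 1.67, adjusted p = 0.00267). The middle bins were not told apart, with HiMed 0.952-fold of MedLow (95% interval 0.803 to 1.13, adjusted p = 0.789).

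Counts and TPM of the ligases diverged in single libraries. In TPM, Rnf43 had 35.8, 34.6 and 37.7 in Low, 25.3, 28.9 and 22.03 in MedLow, and 44.2, 21.2 and 26.5 in HiMed, so HiMed replicate 1 stood above the others of its bin. Its counts per TPM, relative to the median gene of the library and the gene's mean over libraries, were 0.64 in HiMed replicate 1 and 0.914 to 1.10 in the other libraries. For Znrf3 the lowest value was 0.775, in MedLow replicate 3. The highest value over the lowest was 1.72 for Rnf43 and 1.38 for Znrf3, at percentiles 86.6 and 66.3 among 9197 genes. Counts per TPM follow the mean length of the transcripts to which a gene's reads were assigned. Why they were low in HiMed replicate 1 and MedLow replicate 3 was not tested. On log2(TPM + 1) with limma, HiMed against Low was -0.29 (adjusted p = 0.449), MedLow against Low was -0.50 (adjusted p = 0.353), and both calls were lost. High against HiMed (adjusted p at most 0.00871) and High against Low (at most 0.0239) held in all 21 alternatives.

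Znrf3 had 63.8, 57.9 and 58.9 CPM in Low, 69.3, 56.1 and 65.4 in MedLow, 98.1, 84.0 and 86.3 in HiMed, and 95.8, 89.5 and 96.8 in High. Its libraries fell into 2 levels, with Low and MedLow below HiMed and High. Znrf3 rose by 0.49 in HiMed against MedLow (SE 0.09, adjusted p = 0.00206, and 0.0902 with limma on log2(TPM + 1), which ends the call). Neither MedLow against Low (1.06-fold, 95% interval 0.921 to 1.21, adjusted p = 0.804) nor High against HiMed (1.05-fold, 95% interval 0.918 to 1.20, adjusted p = 0.647) was called. Rnf43 and Znrf3 together had 0.651 ± 0.0156 TPM per receptor TPM in Low, 0.652 ± 0.0685 in MedLow, 0.297 ± 0.0221 in HiMed, with 0.329 ± 0.0548 in High. The ratio was lower in every HiMed and High library (0.275 to 0.385) than in every Low and MedLow library (0.580 to 0.716).

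**Figure D3:**
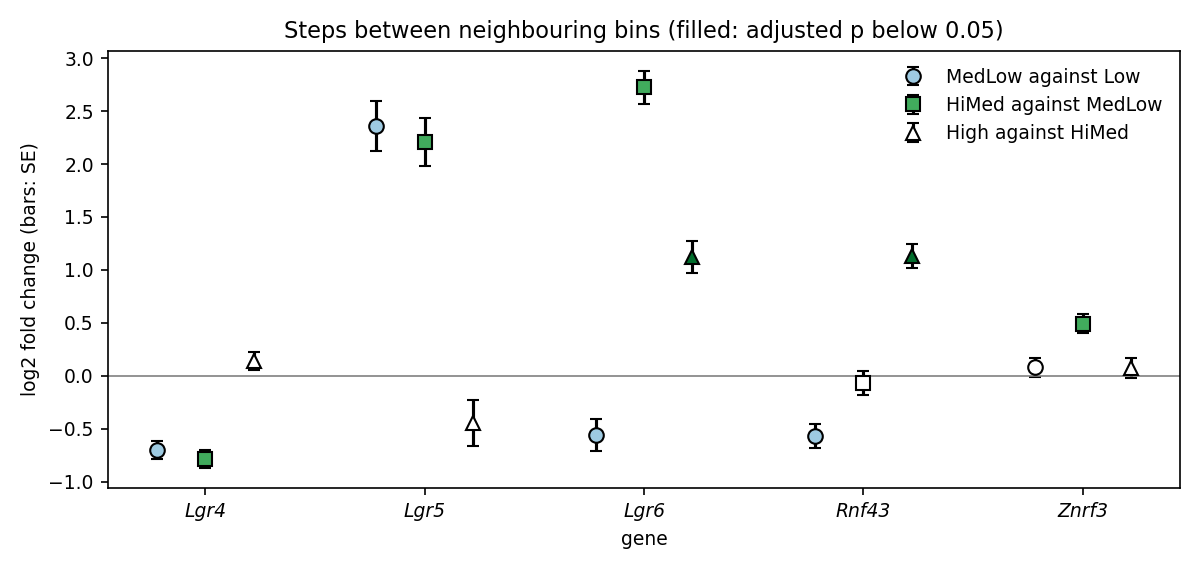
Log2 fold change (points) and its SE (bars) of each receptor and ligase at the 3 steps between neighbouring bins, brighter over dimmer, from the fit over all 12 libraries; filled symbols have an adjusted p below 0.05. Lgr5 rises at the first 2 steps, Lgr6 at the last 2 and Znrf3 at the middle step, while Rnf43 falls at the first and rises at the last.

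The R-spondin ligands were near or at 0. Rspo3, a ligand that binds all 3 receptors, had 0 counts in each of the 6 Low and MedLow libraries, 22, 25 and 65 in HiMed, and 0, 35 and 28 in High. The mean was 0.792 ± 0.344 CPM in HiMed, with 0.398 ± 0.346 in High, far under every receptor. High replicate 1 stood at 0 beside 2 libraries with a signal, and High over HiMed was 0.506 (95% interval 0.365 to 0.694, counting error only), which the test over libraries did not call (adjusted p = 0.731). Against a floor of 3 counts over a bin's libraries, Rspo3 was at least 29.3-fold higher in HiMed than in Low and at least 14.8-fold higher in High than in Low. Rspo3 passed the filter on low counts only through the bins where it had counts, so its tests are given as a description and support nothing. The adjusted p was 0.0331 in High against Low, 0.0324 in High against MedLow, 0.0318 in HiMed against Low and 0.0461 in HiMed against MedLow, and 0.0188 for any difference among the bins (0.0508 without HiMed replicate 3). With the replicate block the calls of High against Low (0.0690), High against MedLow (0.0657) and HiMed against MedLow (0.0577) were lost. So were those of High against Low (0.199) and High against MedLow (0.210) with limma on log2(TPM + 1), and both (0.0782 and 0.0783) in fits of the 6 libraries compared. Leaving out 1 library ended each pairwise call at least once: High against Low without High replicate 2 or 3, HiMed replicate 3 or any Low replicate (0.0552 to 0.0857), and HiMed against Low without HiMed replicate 2 or 3 or any Low replicate (0.0565 to 0.0930). High against MedLow was lost without High replicate 2 or 3, HiMed replicate 3 or any MedLow replicate (0.0551 to 0.0831). HiMed against MedLow was kept without High replicate 1 or Low replicate 2, and lost without any of the other 10 libraries (0.0504 to 0.135).

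Rspo1 had 11, 11 and 12 counts in Low, 3, 0 and 0 in MedLow, and 0 in all 6 HiMed and High libraries. Its mean was 0.338 ± 0.0952 CPM in Low. It was at least 16-fold lower in High than in Low, but the test did not call it (adjusted p = 0.0537). It was called with limma on log2(TPM + 1) (0.0143), in the fit of the 6 libraries compared (0.0415) and without HiMed replicate 1 (0.0497). MedLow over Low was 0.0790 (95% interval 0.0155 to 0.251, counting error only, adjusted p = 0.489). Rspo2 and Rspo4 had 0 counts in all 12 libraries, which allows up to 0.0284 CPM in Low, 0.0254 in MedLow, 0.0223 in HiMed, with 0.0200 in High. At this depth Rspo2 and Rspo4 were not detectable, and such floors cover counting error only.

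R-spondins are known mainly as products of stromal cells and nerves, so markers of those cells were set beside them. The summed level of 7 fibroblast markers was 591 to 632 CPM in Low, 101 to 187 in MedLow, 34.7 to 39.3 in HiMed, with 8.37 to 17.4 in High, and nearly all of it was Dcn (608 ± 20.8 CPM in Low). The collagen genes Col1a1 (0.980 CPM), Col1a2 (0.0779) and Col3a1 (0.160) were near 0 in Low, and Lum was at 0 in every bin. Pdgfra went the other way from the sum, with 2.67 ± 0.833 CPM in Low, 1.16 ± 0.172 in MedLow, 2.02 ± 0.830 in HiMed, then 5.99 ± 2.30 in High (High against Low 1.16, SE 0.43, adjusted p = 0.0418). Of the 7 fibroblast markers 3 were tested, and High against Low called 1 higher and 1 lower. The summed level of 7 neuron and Schwann cell markers was 33.3 to 61.3 CPM in Low, 9.08 to 19.9 in MedLow, 10.6 to 17.7 in HiMed, then 19.3 to 21.3 in High. The summed level of 6 markers of the von Ebner glands, the salivary glands that open at this papilla, and their ducts was 710 to 2040 CPM in Low, 145 to 248 in MedLow, 34.1 to 65.2 in HiMed, then 1.22 to 93.5 in High. The summed level of 5 endothelial markers was 13.7 to 24.6 CPM in Low and 9.9 to 12.7 in MedLow. In HiMed it was 24.5 to 40.7 and in High 46.4 to 83.9. That of 6 leukocyte markers was 30.7 to 47.9 CPM in Low and 7.35 to 17.2 in MedLow. In HiMed it was 27.6 to 62.7 and in High 102 to 308. Some markers of both lists had 0 counts in a whole bin. In High these were Kdr of the endothelial list, and Cd3e and Adgre1 of the leukocyte list. In HiMed they were Cdh5 and Kdr, and Ptprc, Cd3e and Adgre1. In Low they were Cdh5 and Kdr, and Cd3e. High against Low called 1 of 3 endothelial markers tested higher and 0 lower, and 2 of 4 leukocyte markers higher and 1 lower. It called 0 of 4 neuron and Schwann cell markers tested higher and 2 lower, and 0 of 5 gland markers higher and 2 lower. Of all genes 41.2% were called in that comparison. With so few markers tested, these counts and that of the fibroblast markers are a description. Rspo1 and Lgr4 were highest in Low, as were the neural and gland sums and Dcn, which made up nearly all of the fibroblast sum. As Pdgfra was highest in High, that sum is not read as a level of fibroblasts. Rspo3 had counts only in HiMed and High. The part of any of these cell types in the results on Rspo1, Rspo3 and Lgr4 was not tested.

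**Figure D4:**
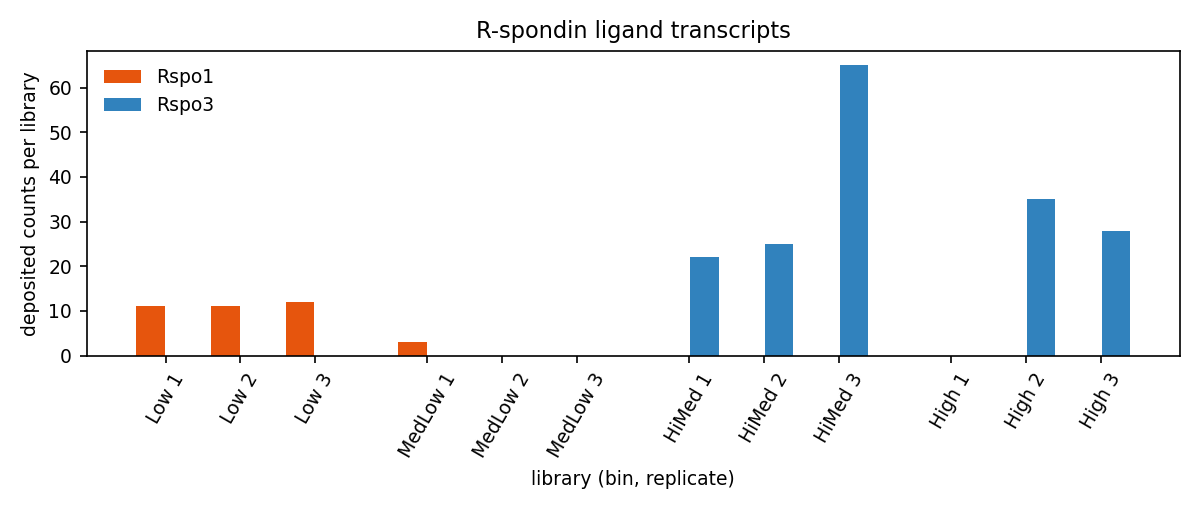
Deposited counts of Rspo1 and Rspo3 in each of the 12 libraries by bin and replicate; Rspo2 and Rspo4 are 0 throughout and not drawn. Rspo1 appears in the 3 Low libraries (11, 11 and 12 counts) and 1 MedLow library, and Rspo3 in 5 of the 6 HiMed and High libraries.

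Counted over the 7 members tested, 6 differed among the bins, where 42.0% of all genes tested did. Rspo1, too, passed the count filter only through the bins where it had counts. The 6 include Rspo3, and leaving it aside 5 differed, the 3 receptors and 2 ligases. High against Low called 5 members higher and 1 lower; of all genes 41.2% were called in either direction. High against MedLow called 5 higher and 1 lower, beside 37.9% of all genes. High against HiMed called 2 higher and 0 lower, beside 22.3%. HiMed against Low called 4 higher and 2 lower, beside 23.7%. HiMed against MedLow called 4 higher and 1 lower, beside 13.6%. MedLow against Low called 1 higher and 3 lower, beside 6.47%. In each of the comparisons of High or HiMed with Low or MedLow, 1 of the members called higher was Rspo3. Non-overlap of the libraries of a pair of bins, mentioned above for single members, was common among all genes: it held for 52.4% in High against Low, 51.3% in High against MedLow, 35.3% in High against HiMed, 38.6% in HiMed against Low, 32.8% in HiMed against MedLow and 27.4% in MedLow against Low. The share of all genes with all 4 bins apart, as for Lgr6, was not counted. Nor was the share with HiMed and High wholly apart from Low and MedLow. The members were chosen with earlier results of these data known, so the counts of members called describe them and are not set against chance.

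The other receptors of the Wnt signal were measured beside them. Of 15 Frizzled, Lrp and Dishevelled genes, all tested, 7 were higher and 2 lower in High against Low, with a median log2 fold change of 0.13 against -0.01 over all genes, of which 41.2% were called. Fzd1, a Frizzled receptor, rose at each step and had 527 ± 54.9 CPM in High against 114.9 ± 14.3 in Low (log2 fold change 2.20, SE 0.10, adjusted p = 3.56e-10). Fzd4, which also serves as the Norrin receptor, had 95.5 ± 34.7 CPM in High against 9.995 ± 1.34 in Low (3.26, SE 0.26, adjusted p = 8.79e-07). Fzd10 rose by 1.67 in High against Low (adjusted p = 4.86e-09), Dvl2 by 0.71 and Fzd3 by 0.56. The co-receptor Lrp5 fell to 229 ± 14.02 CPM in High, against 392 ± 19.5 in Low (-0.78, adjusted p = 5.1e-06), and Dvl1, which relays the signal inside the cell, fell by 0.33. Of 10 cell surface heparan sulfate proteoglycans, which can hold R-spondins near the membrane, 9 were tested; 5 were higher and 3 lower in High against Low (median 0.45), beside the same 41.2% and -0.01 over all genes. Gpc6 (2.49), Sdc3 (1.62) and Gpc2 (1.15) led the rise, and Gpc3 (-2.14), Sdc2 (-0.69) and Sdc4 (-0.45) fell.

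Of 16 Wnt target genes, 15 were tested, and 6 were higher and 6 lower in High against Low (median -0.19), where 41.2% of all genes were called and their median was -0.01. Nkd1 (4.91), Notum (4.12) and Ephb2 (2.04) rose with Tcf7 (0.52) and Axin2 (0.47). Myc (-2.71), Ascl2 (-2.39), Apcdd1 (-2.06), Ccnd1 (-1.82) and Tnfrsf19 (-0.90) fell. MedLow against Low called 1 of them higher and 8 lower, with 6.47% of all genes called. HiMed against MedLow called 6 higher and 4 lower (13.6% of all genes), and High against HiMed 8 higher and 4 lower (22.3%). The list medians were -0.82 in MedLow against Low, -0.02 in HiMed against MedLow and 0.50 in High against HiMed, while those of all genes were -0.001, -0.015 and -0.009. Axin2, a feedback inhibitor that is a standard readout of Wnt signalling, had 54.7 ± 9.48 CPM in Low, 22.65 ± 2.74 in MedLow, 19.6 ± 2.66 in HiMed, with 75.9 ± 10.8 in High. It fell by 1.27 in MedLow against Low (adjusted p = 8e-05) and rose by 1.95 in High against HiMed (adjusted p = 6e-07). Like Rnf43, Axin2 was low in both middle bins, which were not told apart (HiMed against MedLow -0.21, adjusted p = 0.43). Lef1, a transcription factor of the pathway, had 125.7 ± 13.3 CPM in Low, 33.4 ± 7.80 in MedLow, 35.0 ± 11.3 in HiMed, with 90.9 ± 10.3 in High.

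**Figure D5:**
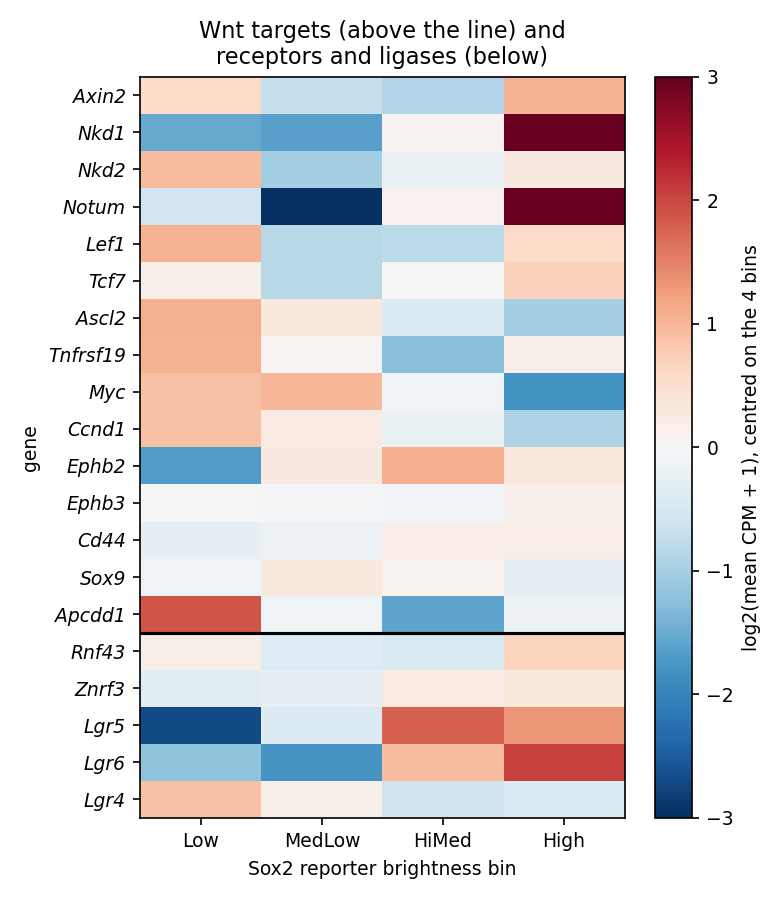
Colour gives log2(mean CPM + 1) of each gene in each bin, centred on its mean over the 4 bins, for 15 Wnt targets (above the line) and the receptors and ligases (below); the scale is cut at 3 either way. Axin2, Lef1 and Rnf43 are blue in MedLow and HiMed and red at both ends, while Lgr5 is reddest in HiMed and High.

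Genes whose course was most like a member's were sought by the root-mean-square difference of centred log2(CPM + 1) over the 12 libraries, among 10094 other genes reaching a bin mean of 10 CPM. Nearest to Lgr5 were Serpine2 (0.214), a secreted protease inhibitor, and Il33 (0.304), an alarmin cytokine, then P2ry14, Akap12 and Brinp1; the value for a gene with no change would be 1.77. Nearest to Lgr6 were Prrx2 (0.307), a homeobox factor, Hes6 (0.327), a factor of the Hes family, Tspan12 and Pls1. Lgr4 was followed most closely by the transcription factors Sp6 (0.111) and Foxa1 (0.127), then Dennd2d, Moxd1 and Ifnlr1. Rnf43 was followed by the potassium-chloride transporter Slc12a7 (0.115), Igsf8, Tmem184b, Dsg2 and Stx3. Znrf3 lay nearest to Ern1 (0.0600), a sensor of stress in the endoplasmic reticulum, Tesk1, Otud7b, Atp9a and Zswim8. With log2(CPM + 0.1) the same 5 genes stayed nearest to Lgr4, Rnf43 and Znrf3, 4 to Lgr6 and 3 to Lgr5. For Rspo1 and Rspo3 none of the 5 stayed, so none is named. Among the members, Lgr5 and Lgr6 differed from each other by 1.165 on this scale and Rnf43 and Znrf3 by 0.484, more than each one's nearest genes.

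In the GENCODE M21 annotation, A930009A15Rik overlaps Lgr5 on the other strand and 1110028F11Rik overlaps Rnf43 on the same strand. Their highest counts in a library were 21 and 76, beside 1752 to 6644 for Rnf43, and A930009A15Rik had counts in 1 library, High replicate 1. Gm12930 and Gm48159, antisense to Rspo1 and Rspo3, had 0 counts throughout. Gm20276, on the same strand as Rspo3, had at most 5 counts in a library, and Rspo4os, antisense to Rspo4, at most 2. Whether counting used strand is not stated in the sources at hand, so reads of a gene and its antisense partner cannot be told apart.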

How the data were processed

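Polyadenylated RNA of 12 libraries, 3 in each of 4 reporter brightness bins, was analysed from whole-series tables. Per the submitters' processing notes, the tools were Salmon 1.4.0 and DESeq2 1.28.1 with the mm39 build; annotation and settings are not stated in the sources at hand. The authors deposited estimated counts per gene symbol (8.24 to 13.0% of all values per library, zeros included, not whole), which were rounded before testing. The authors also deposited TPM values, which are scaled by length and library, and these served for levels compared between genes.

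Counts were filtered with edgeR 4.0.16 filterByExpr (minimum count 10), which kept 17432 symbols and left out 35238 with 0.0339% of counts, and were scaled by TMM. One quasi-likelihood fit over all 12 libraries (robust, no covariate, R 4.3.3) tested any difference and each pair of bins, with Benjamini-Hochberg adjustment over all genes and a threshold of 0.05; the biological coefficient of variation was 0.366. Replicates within a bin differed beyond sampling noise (chi-square per degree of freedom 25.8 to 90.3). Each replicate is a pool of mice, and p-values measure the spread between these pools. Alternatives were DESeq2 1.42.0, limma 3.58.1 on log2(TPM + 1) and log2(TPM + 0.1), other scalings and filters, 6-library fits, a replicate block and leaving out each library.

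The series describes replicates as pools of mice sorted into the bins, so replicate numbers were taken to pair libraries. The main fit leaves this pairing out, and only the replicate block uses it. Over 9650 genes, deviations from bin means correlated by 0.0794 to 0.353 in the 18 pairs of libraries with the same number and by -0.283 to 0.0378 in the 36 other pairs.

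Members and gene lists were chosen with earlier results of these data known. Genes named are the members, for each the 5 genes of most similar course (1 of those for Lgr6 is not reported here), and up to 5 called genes per direction of each pathway list by fold change of High against Low, with Axin2 and Lef1 described further after their values were seen. Start regions are RefSeq's on GRCm38.p6, and overlaps come from GENCODE M21 on GRCm38. Intervals for ratios of counts and floors cover counting error only.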

Additional observations from a re-analysis of the deposited data

How the results depend on the processing

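Lgr4, Lgr5, Lgr6, Rnf43 and Znrf3 differed among the bins in all 20 alternatives. The pairwise calls of these genes that were lost concerned Lgr6 and Rnf43 in MedLow against Low, Rnf43 in HiMed against Low and Znrf3 in HiMed against MedLow, with the values given above; the cause was not tested. Rnf43 in HiMed against MedLow, not called, reversed to 0.20 on log2(TPM + 1) and 0.21 on log2(TPM + 0.1), and was 0.022 without HiMed replicate 2. Over 21 settings, High against Low called 5 to 8 genes higher and 1 to 3 lower of the Frizzled, Lrp and Dishevelled list, and 5 to 7 higher and 4 to 7 lower of the Wnt targets.

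With the replicate block, which treats libraries of the same number as paired, 1516 genes were called in MedLow against Low, against 1127 without it, and 7352 against 7182 in High against Low; besides the calls of Rspo3 given above it ended no call of a member.

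In MedLow against Low, 1803 genes were called with the 6 libraries of those bins alone, 697 on log2(TPM + 1) and 660 on log2(TPM + 0.1), and 2 members were called on either TPM scale. Leaving out 1 library gave 669 to 1335 genes, with 702 and 669 without MedLow replicate 1 or 3 and 730 and 718 without Low replicate 1 or 3. In HiMed against MedLow, 1536 and 1532 genes were called on the TPM scales, and leaving out 1 library gave 1402 (without MedLow replicate 2) to 2556, against 2377.

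On deposited TPM the levels gave log2 ratios of -1.11 for Lgr4, 3.53 for Lgr6, 0.78 for Rnf43 and 0.85 for Znrf3 in High over Low, and 0.29 for Lgr4 in High over HiMed. The median log2 fold change of all genes in High against Low was 0.137 on log2(TPM + 1) and 0.172 on log2(TPM + 0.1), against -0.01 on counts. Of the calls in that comparison, 48.6% were higher in High, against 67.0% on log2(TPM + 1), and in HiMed against MedLow 53.8% were higher, against 65.5% with library size only and 71.6% on log2(TPM + 1). With log2(CPM + 0.1), 3 of the 5 genes nearest to Lgr5 and 0 of those nearest to Rspo1 or Rspo3 stayed. Depth limits the ligands: 3 counts over a bin correspond to 0.0200 to 0.0284 CPM.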

Other observations

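The closest relatives of the ligases and receptors were also measured. Of 10 other E3 ligases with the same domain plan as Rnf43 and Znrf3 (a protease-associated domain, a membrane span and a RING finger), 7 were tested; 2 were higher and 1 lower in High against Low, with a median log2 fold change of 0.25 against -0.01 over all genes. Over all genes 41.2% were called in that comparison, close to the share of these ligases. Rnf130 rose by 0.57 (edgeR quasi-likelihood test, adjusted p = 0.000236) and Rnf13 by 0.31 (adjusted p = 0.0484), and Rnf167 fell by 0.27 (adjusted p = 0.0365). None of the 5 other leucine-rich repeat G protein-coupled receptors searched passed the filter on low counts.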
